A study of Mus musculus with 36 samples.

Results

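Txnip, Arrdc3, Sesn1, Sesn3, Pik3ip1, Ccng2, Klf2, Irs2, Engase and Rassf3 were followed in cultured mouse microglia and astrocytes in which RIPK1 kinase had been activated. The 10 genes were taken by symbol from the annotation of both expression tables, and all 10 were present among 15385 genes in microglia and among 14551 genes in astrocytes. They were selected on earlier values of these data, in that some of them had been seen to fall in the stimulated microglia analysed here, so their values in all comparisons of stimulated microglia are given as a description and without a p-value. Rassf3, Engase, Arrdc3 and Sesn1 were known from such changes, and no record says which values brought in the other 6 genes. The group had been named as repressed genes, but Irs2 and Klf2 were higher with T/S/Z in microglia and Sesn3 moved little there, so the genes are called here by their symbols.

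The cells came from the pooled brains of C57BL/6 mice aged 2 to 4 days, grown as mixed glia for 12 days. Microglia were taken from them by positive selection on CD11b, astrocytes were purified from what remained, and both were rested for 24 to 48 h and treated for 4 h. T/5z is tumor necrosis factor (TNF) with 5z-7, an inhibitor of the kinase TAK1, and T/S/Z is TNF with a Smac mimetic and the caspase inhibitor zVAD. N is Nec-1s, a small-molecule inhibitor of RIPK1 kinase, and the vehicle was DMSO (written DSMO in the astrocyte labels). Astrocytes were given the vehicle, N or T/S/Z, the last with and without N, at 3 libraries a treatment. Microglia were given the same 4 treatments and also T/5z with and without N, at 4 libraries a treatment. No treatment group had TNF alone, 5z-7 alone or the Smac mimetic and zVAD alone. T/S/Z kills microglia through necroptosis and T/5z through apoptosis, and in such bulk libraries fewer cells of a type and less RNA per cell cannot be told apart.

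Values are log2(FPKM + 1), that is, reads per length and per depth on a log scale, and FPKM is given where levels of different genes are set side by side. The labels give a different sequencing provider for each table, whereas the study's methods name the same one for both, and the tables were normalized separately. A provider effect could thus not be told apart from cell type, and no test was made between the tables. Depth was not given with the tables. Where values kept the steps of single reads, they corresponded to about 2.12e+07 to 4.48e+07 reads or read pairs a library in astrocytes and 1.83e+07 to 2.53e+07 in replicate 4 of microglia, while replicates 1 to 3 of microglia had lost such steps and their depth is unknown. Their values had been adjusted so that each gene's mean over the 6 treatments was the same in every replicate, which left 187 to 1438 values below 0 in each of these libraries. The 8 microglial markers summed to between 3.04e+03 and 3.34e+03 FPKM in the DMSO libraries of microglia and 8 astrocyte markers to between 6.98 and 8.93 FPKM. In the DMSO libraries of astrocytes the astrocyte markers summed to between 3.21e+03 and 3.28e+03 FPKM and the microglial markers to between 67.3 and 71.8 FPKM. Each culture thus carried the markers of its label, although P2ry12 was low in microglia (2.39) and 4 fibroblast markers reached 370 to 410 FPKM in the astrocyte cultures.

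FOXO factors are transcription factors that are held out of the nucleus when insulin or growth factor signals activate PI3K and AKT, and that switch on genes of growth arrest, stress resistance and feedback on the same pathway when those signals are weak. Sesn1, Sesn3, Pik3ip1, Ccng2, Klf2 and Irs2 are commonly listed among their targets. Txnip, which binds thioredoxin and limits glucose uptake, is also driven by MondoA and ChREBP, factors that sense sugar phosphates and bind paired E-box-like elements. Arrdc3 belongs to the same alpha-arrestin family as Txnip, and Engase and Rassf3 have other roles.

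In build GRCm38 the annotation of the astrocyte table places Txnip at chr3:96557957-96561883 on the plus strand and Arrdc3 at chr13:80883384-80896042 on the plus strand. Sesn1 lies at chr10:41809935-41908424 (plus), Sesn3 at chr9:14275067-14333101 (plus) and Pik3ip1 at chr11:3330401-3342971 (plus). Irs2 lies at chr8:10984681-11008458 (minus), Ccng2 at chr5:93267257-93276231 (plus) and Klf2 at chr8:72319033-72321656 (plus). Engase lies at chr11:118476829-118489209 (plus) and Rassf3 at chr10:121410350-121476347 (minus). All values count whole genes, over their exons.

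RefSeq promoters (build GRCm38.p6, 250 bases before to 50 after each start site) were found for 9 of the 10 genes, all but Rassf3. They were searched on both strands for the FOXO core TGTTTAC and the E-box CACGTG. The FOXO core was present in 2 of the 9 genes with a promoter, against 4.05% of all 27025 genes with such windows, and the E-box in 1, against 8.09%. In the promoter of Txnip the FOXO core lay 121 bases before the start site on the reverse strand, and a pair of E-box-like sites, CACGAG repeated after a gap of 5 bases, began 85 bases before it. That spaced pair was chosen after the Txnip sequence had been read, and it occurred in no other gene (0.0037% of all). Sesn1 carried the FOXO core 22 bases after a start site, and Irs2 carried the E-box 44 bases before its start site. Arrdc4, an alpha-arrestin outside the group whose change was opposite to that of Txnip, carried the E-box 193 bases before its start site. The E-box was also present in the promoters of Mxd4 and Mbnl1, which were lower with T/S/Z in microglia (-2.46 and -1.01) and were picked for their likeness to the group. The promoters shown were picked for the changes of their genes with T/S/Z. Txnip and Sesn1, which carried the FOXO core, were lower in both cell types, while Irs2 and Arrdc4 were higher in microglia. Engase, Arrdc3, Ccng2 and Pik3ip1 were also lower in microglia, and no match was found in their windows. Sesn3 and Klf2 had no match either. Whether a match goes with a direction of change was not tested. Capitals mark the matches, and lower-case letters the bases around them, 5′ to 3′ on the strand of the gene.
Txnip, chr3:96557707-96557956, plus strand, 250 bases before the start site: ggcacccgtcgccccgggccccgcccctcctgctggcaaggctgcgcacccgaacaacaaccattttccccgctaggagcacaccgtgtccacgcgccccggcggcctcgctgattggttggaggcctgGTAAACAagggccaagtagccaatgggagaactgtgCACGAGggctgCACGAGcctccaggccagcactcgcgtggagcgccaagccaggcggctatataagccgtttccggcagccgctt
Sesn1, chr10:41810585-41810614, plus strand, 30 bases around the match: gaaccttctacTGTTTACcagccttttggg
Irs2, chr8:11008930-11009179, minus strand, 250 bases before the start site: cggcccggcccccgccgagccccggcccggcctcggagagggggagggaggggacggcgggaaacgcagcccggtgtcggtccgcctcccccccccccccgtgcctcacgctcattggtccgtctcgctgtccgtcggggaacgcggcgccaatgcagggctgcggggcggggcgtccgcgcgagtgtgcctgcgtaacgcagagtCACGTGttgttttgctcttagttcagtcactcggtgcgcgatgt
Arrdc4, chr7:68749239-68749488, minus strand, 250 bases before the start site: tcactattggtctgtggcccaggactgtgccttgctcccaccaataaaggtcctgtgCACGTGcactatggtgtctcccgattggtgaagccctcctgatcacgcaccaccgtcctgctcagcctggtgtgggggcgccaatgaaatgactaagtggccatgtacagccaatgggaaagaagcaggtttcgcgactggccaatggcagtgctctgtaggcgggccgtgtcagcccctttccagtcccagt
A match describes these letters in these windows and shows no binding.

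In unstimulated microglia the genes spanned a wide range of levels per length. Txnip had the highest level with DMSO (129.6 ± 2.94 FPKM, SD, n = 4), followed by Rassf3 (52.8 ± 4.33), Arrdc3 (32.7 ± 2.97), Sesn1 (30.8 ± 2.80), Engase (25.1 ± 3.57) and Ccng2 (21.1 ± 2.24). Irs2 (6.91 ± 0.593) and Klf2 (5.42 ± 0.825) were low, and Pik3ip1 (1.19 ± 0.069) and Sesn3 (0.897 ± 0.239) were near the limit of the table. Neighbouring genes whose DMSO libraries overlapped were Arrdc3 and Sesn1, Engase and Sesn1, Ccng2 and Engase, Klf2 and Irs2, and Sesn3 and Pik3ip1. In astrocytes the order was different, with Txnip again highest (64.9 ± 11.7 FPKM, SD, n = 3) but Pik3ip1 (21.5 ± 2.41) and Sesn1 (20.96 ± 1.99) next, Engase lowest (1.39 ± 0.692) and Sesn3 at 13.8 ± 0.657.

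With T/S/Z, 7 of the 10 genes were lower in microglia than with DMSO and 2 were higher past the limits used throughout, a fold change above 1.5 and a Benjamini-Hochberg adjusted p below 0.05 in limma. With T/5z, 5 were lower and none was higher. Of all 10524 genes tested, 17.5% were lower and 12.2% higher with T/S/Z, and 13.3% were lower and 11.1% higher with T/5z. For T/S/Z this was 1280 genes higher and 1838 lower, and centring each library on its median made it 1564 and 1406. For T/5z it was 1167 and 1396, which became 1360 and 1177 with centring. Since the fall in these contrasts chose genes of the group, nothing is read from these counts. The median log2 change over the 10 genes was -1.72 with T/S/Z and -0.81 with T/5z, beside -0.085 and -0.058 over all genes tested. In T/S/Z, the libraries of 7 genes lay wholly below DMSO, as did 40.3% of all genes, and those of 2 lay wholly above, as did 29.2%. In T/5z, 8 genes lay wholly below DMSO, as did 36.5% of all genes, and none wholly above, as did 26.9%. The summed astrocyte markers moved with the stimuli in the same libraries, from 6.98 to 8.93 FPKM with DMSO to 11.8 to 21.6 FPKM with T/5z and 13.2 to 19.3 FPKM with T/S/Z. The 4 fibroblast markers summed to 4.65 to 6.46 FPKM with DMSO, 7.94 to 14.7 with T/5z and 3.88 to 6.3 with T/S/Z, and the 2 endothelial markers listed to 4.46 to 5.8, 2.45 to 3.09 and 1.79 to 2.29. The microglial markers were lower with T/5z than with DMSO, 2.73e+03 to 2.97e+03 FPKM, and so were the 7 oligodendrocyte lineage markers listed, 25.6 to 29.6 against 30.6 to 32.6 FPKM. The part of these cells in the changes was not tested.

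**Figure D1:**
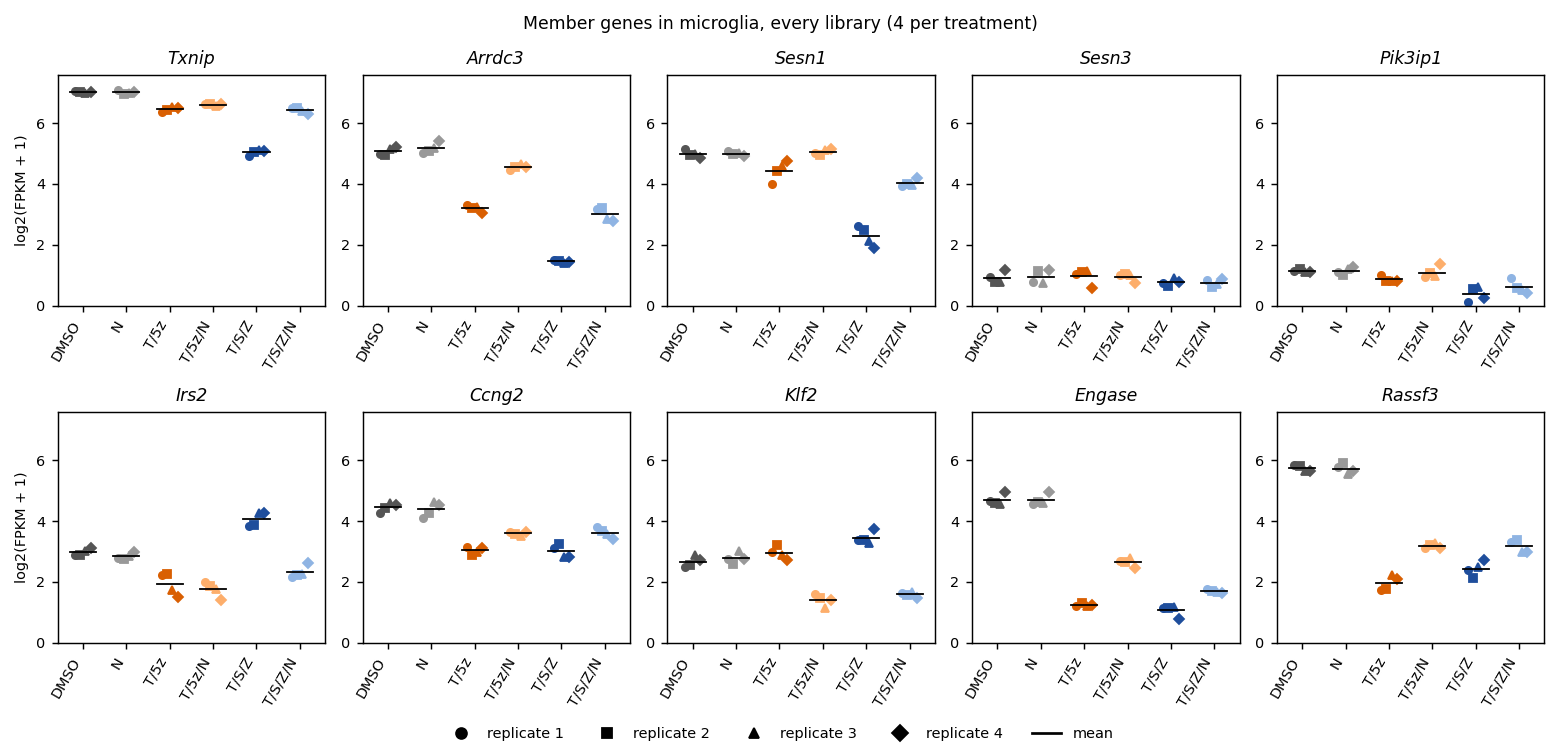
Log2(FPKM + 1) of the 10 genes (vertical axes) in every microglial library by treatment (horizontal axes), 4 libraries each, with the symbol giving the replicate and the line the mean. Arrdc3, Sesn1 and Txnip were lowest with T/S/Z, Rassf3 and Engase were low with both stimuli, and Irs2 and Klf2 were highest with T/S/Z.

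Rassf3 and Engase, the genes with other roles, had the largest falls with T/5z. Rassf3 encodes a Ras association domain protein that has been linked to apoptosis and p53. Its log2 values were 5.86, 5.83, 5.65 and 5.65 with DMSO, 1.75, 1.77, 2.23 and 2.10 with T/5z, and 2.38, 2.12, 2.5 and 2.71 with T/S/Z (replicates 1 to 4). Both stimulated groups lay more than 2 log2 units below every DMSO library, with a change of -3.78 (SE 0.13) with T/5z and -3.32 (SE 0.12) with T/S/Z. When Nec-1s was added, Rassf3 read 3.13, 3.23, 3.28 and 3.12 with T/5z/N and 3.33, 3.37, 3.00 and 3.00 with T/S/Z/N. It thus stood above the stimulated cells in every pair, by 1.23 (SE 0.087) and 0.74 (SE 0.15), and still 2.56 and 2.57 below DMSO. The rise after T/S/Z did not pass the limits without replicate 2 or with 5 added before the log (0.47).

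Engase, an endoglycosidase of the cytosol that releases N-glycans, read 4.65, 4.6, 4.56 and 4.97 with DMSO, 1.23, 1.32, 1.23 and 1.26 with T/5z, and 1.16, 1.15, 1.18 and 0.78 with T/S/Z. In FPKM this was a drop from 25.1 to 1.39 with T/5z and to 1.11 with T/S/Z, and the log2 changes were -3.44 (SE 0.082) and -3.63 (SE 0.13). With Nec-1s it was 2.68, 2.67, 2.80 and 2.46 after T/5z, but only 1.77, 1.70, 1.68 and 1.64 after T/S/Z. Nec-1s took back 40.6% of the T/5z change (range over replicates 32.3% to 47.2%) and 17.4% of the T/S/Z change (14.6% to 20.5%), percentages of the log2 difference from DMSO. The rise after T/S/Z (0.63, SE 0.087) did not pass without replicate 4, with 5 added before the log (0.25) or with libraries centred on their medians. Engase overlaps Gm11748 on the opposite strand, which was near 0 in the table (0.19 with DMSO).

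Of the alpha-arrestins, Arrdc3 and Txnip were lower with T/S/Z than with T/5z. Arrdc3 encodes an adaptor that brings ubiquitin ligases to membrane receptors. Its values were 5.00, 4.94, 5.14 and 5.21 with DMSO, 3.31, 3.21, 3.23 and 3.05 with T/5z, and 1.5, 1.47, 1.41 and 1.43 with T/S/Z. None of the 3 groups overlapped, and the changes from DMSO were -1.87 (SE 0.084) and -3.62 (SE 0.077). With Nec-1s it read 4.46, 4.56, 4.67 and 4.57 after T/5z and 3.19, 3.22, 2.86 and 2.79 after T/S/Z, so that 72.9% of the T/5z change (68.2% to 78.1%) and 43.2% of the T/S/Z change (36.0% to 50.4%) was taken back.

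Txnip read 7.07, 7.04, 6.99 and 7.02 with DMSO, 6.38, 6.43, 6.54 and 6.50 with T/5z, and 4.93, 5.05, 5.10 and 5.10 with T/S/Z. The T/5z value lay below DMSO in 4 of 4 pairs but its change of -0.57 (SE 0.052) was under the fold limit, which it passed without replicate 3 and after quantile normalization. With T/S/Z the level dropped from 129.6 to 32.1 FPKM, a log2 change of -1.98 (SE 0.058). In T/5z/N libraries Txnip read 6.62, 6.62, 6.57 and 6.63, only 0.15 above T/5z, whereas in T/S/Z/N libraries it read 6.49, 6.48, 6.40 and 6.31, which was 1.37 (SE 0.062) above T/S/Z. Of the T/S/Z change 69.2% was taken back (63.1% to 72.9%). Gm15441, which covers Txnip on the opposite strand, was near 0 with DMSO (0.14) and with T/S/Z (0.11).

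Sesn1 and Sesn3 encode sestrins, which restrain the growth kinase mTORC1 when amino acids are short. Sesn1 read 5.15, 4.94, 5.00 and 4.86 with DMSO, 3.99, 4.42, 4.59 and 4.74 with T/5z, and 2.61, 2.49, 2.12 and 1.9 with T/S/Z. The T/S/Z libraries lay far below the others (change -2.71, SE 0.095), while the 4 T/5z libraries were spread over a wide range just below DMSO (-0.55, SE 0.15, not past the limits, but past them without replicate 3 or without replicate 4 and after quantile normalization, and only -0.35 without replicate 1). With Nec-1s the gene was 5.02, 4.96, 5.10 and 5.14 after T/5z, overlapping DMSO, and 3.93, 4.00, 3.95 and 4.21 after T/S/Z. This took back 64.4% of the T/S/Z change (52.0% to 78.2%), and the rise after T/5z (0.62, SE 0.093) did not pass without replicate 1, with 5 added before the log or with libraries centred on their medians. Sesn3 was between 0.58 and 1.18 in all 24 microglial libraries, with changes of 0.044 and -0.15 that were no larger than the spread between libraries.

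The feedback genes of the PI3K pathway did not move together. Irs2, an adaptor that carries signals from the insulin and IGF1 receptors to PI3K, went opposite ways with the 2 stimuli. It read 2.89, 2.90, 3.02 and 3.11 with DMSO, 2.23, 2.25, 1.74 and 1.52 with T/5z, and 3.84, 3.89, 4.27 and 4.28 with T/S/Z. T/5z lay wholly below DMSO (-1.05, SE 0.17) and T/S/Z wholly above it (1.09, SE 0.071). With Nec-1s, Irs2 was 1.99, 1.87, 1.76 and 1.40 after T/5z and 2.18, 2.24, 2.28 and 2.62 after T/S/Z, so that both groups with Nec-1s were below DMSO in every pair. Pik3ip1, a membrane protein that inhibits PI3K, was 1.09 to 1.19 with DMSO, 0.80 to 1.00 with T/5z and 0.12 to 0.60 with T/S/Z. Its T/S/Z change of -0.76 (SE 0.11) no longer passed with 5 instead of 1 added before the log, and it stands on values of about 1 FPKM or less.

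Ccng2 and Klf2 are linked to growth arrest and quiescence. Ccng2, an atypical cyclin, was 4.26 to 4.6 with DMSO, 2.88 to 3.16 with T/5z and 2.81 to 3.24 with T/S/Z, changes of -1.42 (SE 0.09) and -1.46 (SE 0.12). With Nec-1s it was between 3.52 and 3.65 after T/5z and between 3.41 and 3.81 after T/S/Z, and about the same share of each change was taken back, 39.4% and 42.2%. The difference after T/5z, 0.56, was under the fold limit but past it without replicate 1, and that after T/S/Z, 0.61, was lost without replicate 3 and under other scalings. Klf2, a zinc finger factor that restrains inflammatory genes, read 2.49, 2.57, 2.90 and 2.73 with DMSO, 3.00, 3.22, 2.88 and 2.72 with T/5z, and 3.37, 3.40, 3.28 and 3.75 with T/S/Z. T/5z overlapped DMSO, and T/S/Z lay above it by 0.78 (SE 0.11), which did not pass with 5 added before the log. When Nec-1s was present Klf2 lay below every DMSO library, at 1.6, 1.49, 1.13 and 1.41 with T/5z/N and 1.64, 1.58, 1.66 and 1.49 with T/S/Z/N, changes of -1.27 (SE 0.14) and -1.08 (SE 0.091) from DMSO.

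**Figure D2:**
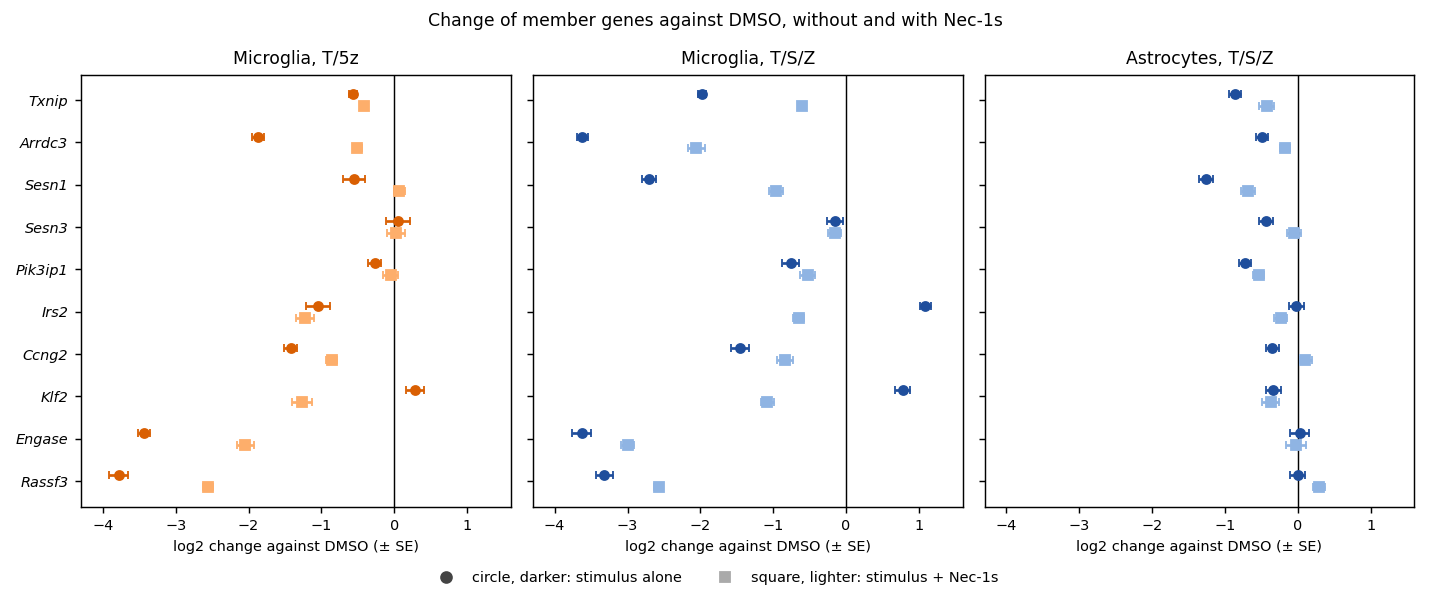
Log2 change against DMSO (horizontal axes, bars are SE) of each gene (vertical axis) with the stimulus alone (circles) and with Nec-1s added (squares), in microglia (4 libraries a group) and astrocytes (3 libraries a group). In microglia the squares of Rassf3, Engase, Arrdc3 and Ccng2 lie between the circles and 0, while Irs2 and Klf2 cross 0 with T/S/Z.

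Nec-1s alone did not move these genes detectably. In microglia 0 of 10 passed with N against DMSO (limma, 2 with an unadjusted p below 0.05), the largest change was 0.14 in size, and 0% of all genes passed in either direction, with 892 genes at an unadjusted p below 0.05. When Nec-1s was added to a stimulus, 4 of the 10 were higher and 1 lower after T/5z, and 6 were higher and 2 lower after T/S/Z. Over all genes 2.64% were higher and 4.52% lower after T/5z, and 5.35% were higher and 6.72% lower after T/S/Z. These contrasts share the stimulated libraries that chose genes of the group, so nothing is read from the counts. Against DMSO, cells with a stimulus and Nec-1s had 5 of 10 genes lower with T/5z/N and 8 of 10 lower with T/S/Z/N, where 6.69% and 7.87% of all genes were lower, and none higher, where 6.16% and 6.2% were higher. Those comparisons share the DMSO libraries. With T/S/Z/N these were Txnip, Arrdc3, Sesn1, Ccng2, Engase and Rassf3, which were also lower with T/S/Z, and Irs2 and Klf2, which were higher with T/S/Z. Of these, Txnip did not pass without replicate 4, and Irs2 and Klf2 did not pass with 5 added before the log.

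How the genes differed between the 2 stimuli is also given as a description, because these libraries may have had a part in the choice of all 10 genes. With T/S/Z, 3 genes were lower than with T/5z past the limits and 1 was higher, where 4.42% of all genes were lower and 5.42% higher, and nothing is read from these counts. Sesn1, Arrdc3 and Txnip were lower with T/S/Z in 4 of 4 pairs, by 2.16 (SE 0.21), 1.75 (SE 0.071) and 1.42 (SE 0.045) on the log2 scale. Irs2 was higher in 4 of 4 pairs, by 2.13 (SE 0.20). Klf2 (0.49, SE 0.13), Rassf3 (0.47, SE 0.089) and Pik3ip1 (-0.49, SE 0.13) were under the fold limit, which Klf2 passed without replicate 2, while its difference was 0.31 without replicate 4. Engase (-0.19, SE 0.1), Sesn3 (-0.19, SE 0.12) and Ccng2 (-0.034, SE 0.11) differed by less than 2 SE.

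With Nec-1s present, 3 genes were lower with T/S/Z/N than with T/5z/N past the limits and none was higher, where 1.59% of all genes were lower and 1.8% higher. These were Arrdc3 (-1.55, SE 0.095), Sesn1 (-1.04, SE 0.049) and Engase (-0.95, SE 0.07), each lower in 4 of 4 pairs, and Engase did not pass with 5 added before the log. Irs2 was 0.57 higher with T/S/Z/N (SE 0.15), under the fold limit but past it without replicate 1 or without replicate 2, and 0.36 without replicate 4. Pik3ip1 was 0.48 lower (SE 0.14), passed without replicate 1 and was 0.32 lower on the log2 scale without replicate 4. Txnip, with its large difference between the stimuli alone, differed by -0.19 (SE 0.042) once Nec-1s was present.

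The change with Nec-1s after T/S/Z minus that after T/5z, the interaction, was 1.22 for Txnip (SE 0.075) and 1.12 for Sesn1 (SE 0.23), both positive in 4 of 4 replicates. It was -1.56 for Irs2 (SE 0.26), -0.77 for Engase (SE 0.11) and -0.48 for Rassf3 (SE 0.19), each negative in 4 of 4. Past the limits were 2 genes with a positive value, Txnip and Sesn1, and 2 with a negative one, Irs2 and Engase, where 2.70% of all genes had a positive and 3.77% a negative value past them. Klf2 was lower with Nec-1s after both stimuli, by 1.55 and 1.86 on the log2 scale, an interaction of -0.31 (SE 0.17) that was -0.093 without replicate 4. It was 0.20 for Arrdc3 (SE 0.12), 0.054 for Ccng2 (SE 0.12) and 0.0096 for Pik3ip1 and 0.011 for Sesn3. Without replicate 1 it was 0.086 for Arrdc3 and -0.27 for Pik3ip1, and that of Ccng2 was 0.003 without replicate 3 and 0.15 without replicate 2. The value for Engase was -0.44 and did not pass with 5 added before the log, and that of Arrdc3 became -0.22. These values too are descriptions, with no test of their own.

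**Figure D3:**
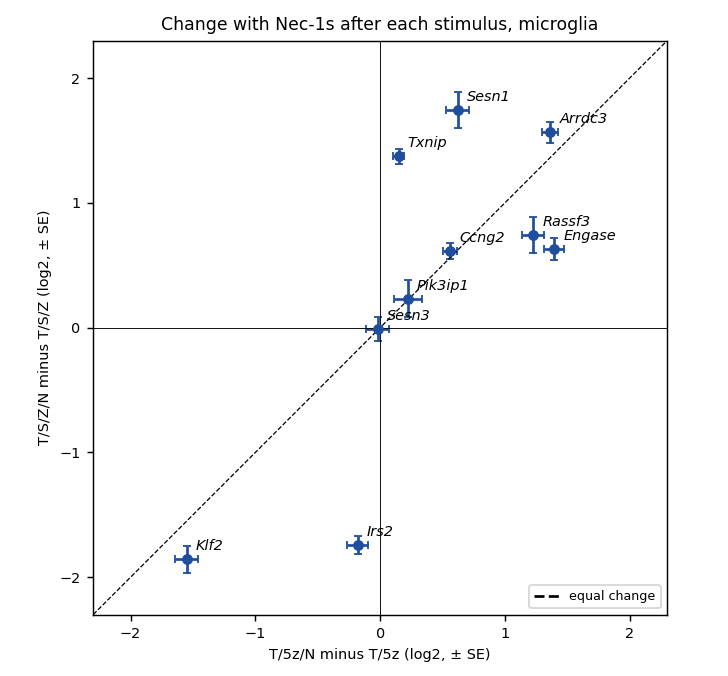
Log2 change with Nec-1s after T/5z (horizontal axis) and after T/S/Z (vertical axis) in microglia, 4 libraries a group, bars are SE and the dashed line marks equal change. Txnip and Sesn1 lie above the line, Engase and Irs2 below it, and Klf2, Ccng2 and Arrdc3 close to it.

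In astrocytes, whose libraries are separate from the microglial ones, T/S/Z lowered 3 of the 10 genes past the limits and raised none (limma). Of all 13842 genes tested, 8.99% were lower and 6.39% higher (885 genes higher and 1245 lower, but 999 and 917 after quantile normalization). The median change over the 10 genes was -0.40, beside -0.11 over all genes. Whether astrocyte values had a part in proposing the group is not recorded, so these p-values may not be independent of the choice. Libraries with T/S/Z lay wholly below DMSO for 6 genes, as for 31.6% of all genes, and wholly above for none, as for 15.3%.

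The 3 genes were Sesn1, Txnip and Pik3ip1. Sesn1 read 4.52, 4.30 and 4.54 with DMSO and 3.15, 3.25 and 3.17 with T/S/Z, a change of -1.26 (SE 0.097, adjusted p = 9.88e-05 in limma) seen in 3 of 3 pairs. Txnip read 6.30, 5.82 and 5.96 with DMSO and 5.24, 5.10 and 5.16 with T/S/Z (-0.86, SE 0.086, adjusted p = 0.000355, 3 of 3 pairs). Pik3ip1, which was low in microglia, read 4.59, 4.57 and 4.30 with DMSO and 3.88, 3.76 and 3.64 with T/S/Z (-0.72, SE 0.08, adjusted p = 0.000549, 3 of 3 pairs). Each of the 3 kept its call under all alternatives tried.

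Arrdc3, which was 3.62 log2 units lower in microglia, was 4.04, 3.98 and 4.13 with DMSO and 3.49, 3.55 and 3.64 with T/S/Z in astrocytes. Its change of -0.49 (SE 0.081, adjusted p = 0.00337) was under the fold limit, as were those of Sesn3 (-0.44, adjusted p = 0.012), Ccng2 (-0.35, adjusted p = 0.0192) and Klf2 (-0.34, adjusted p = 0.033), each lower in 3 of 3 pairs. Rassf3 and Engase, which had large falls in microglia, differed by less than their spread in astrocytes. Engase was already at 1.39 FPKM with DMSO there, so a fall as large as in microglia could not have shown. Rassf3 was 2.79, 2.87 and 2.81 with DMSO and 2.92, 2.91 and 2.63 with T/S/Z, and Engase was 1.67, 1.07 and 0.92 with DMSO and 1.43, 1.10 and 1.21 with T/S/Z. Irs2, higher with T/S/Z in microglia, was 3.94, 3.73 and 3.86 with DMSO and 4.10, 3.76 and 3.61 with T/S/Z (-0.02, SE 0.1). Whether these changes differed between the cell types was not tested.

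With Nec-1s added to T/S/Z, 0 of the 10 astrocyte genes passed the limits (limma, 6 with an unadjusted p below 0.05 and 3 with an adjusted p below 0.05), beside 1.51% of all genes that were higher and 1.59% that were lower. These 209 and 220 genes became 330 and 431 without replicate 3 and 144 and 130 without replicate 2. Sesn1 read 3.69, 3.84 and 3.76 with T/S/Z/N, 0.58 above T/S/Z (SE 0.088, adjusted p = 0.0128, 3 of 3 pairs), just under the fold limit and past it without replicate 1. Txnip read 5.66, 5.68 and 5.46 (0.44 above, SE 0.09, adjusted p = 0.0341), and Ccng2 was 0.46 above T/S/Z (adjusted p = 0.0486). For 7 of the 10 genes all T/S/Z/N libraries lay above all T/S/Z libraries, as for 21% of all genes, and for none below, as for 14.1%. Against DMSO, Sesn1 stayed lower with T/S/Z/N (-0.69, SE 0.096, adjusted p = 0.00443), which did not pass with 5 added before the log, and 4.72% of all genes were lower and 4.36% higher. Pik3ip1 read 3.95, 4.01 and 3.88 and was 0.54 below DMSO (adjusted p = 0.00493), under the fold limit but past it without replicate 3. Rassf3, by contrast, was 3.12, 3.19 and 3.04 with T/S/Z/N, 0.29 above DMSO (SE 0.082, adjusted p = 0.044, under the fold limit). With N alone it was 2.96, 3.20 and 2.93, also above every DMSO library, by a mean of 0.20 that did not pass (SE 0.093, adjusted p = 0.857 in limma). N alone passed for 0 of 10 genes against DMSO (limma, 0 with an unadjusted p below 0.05), where 0.0144% of all genes were lower.

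**Figure D4:**
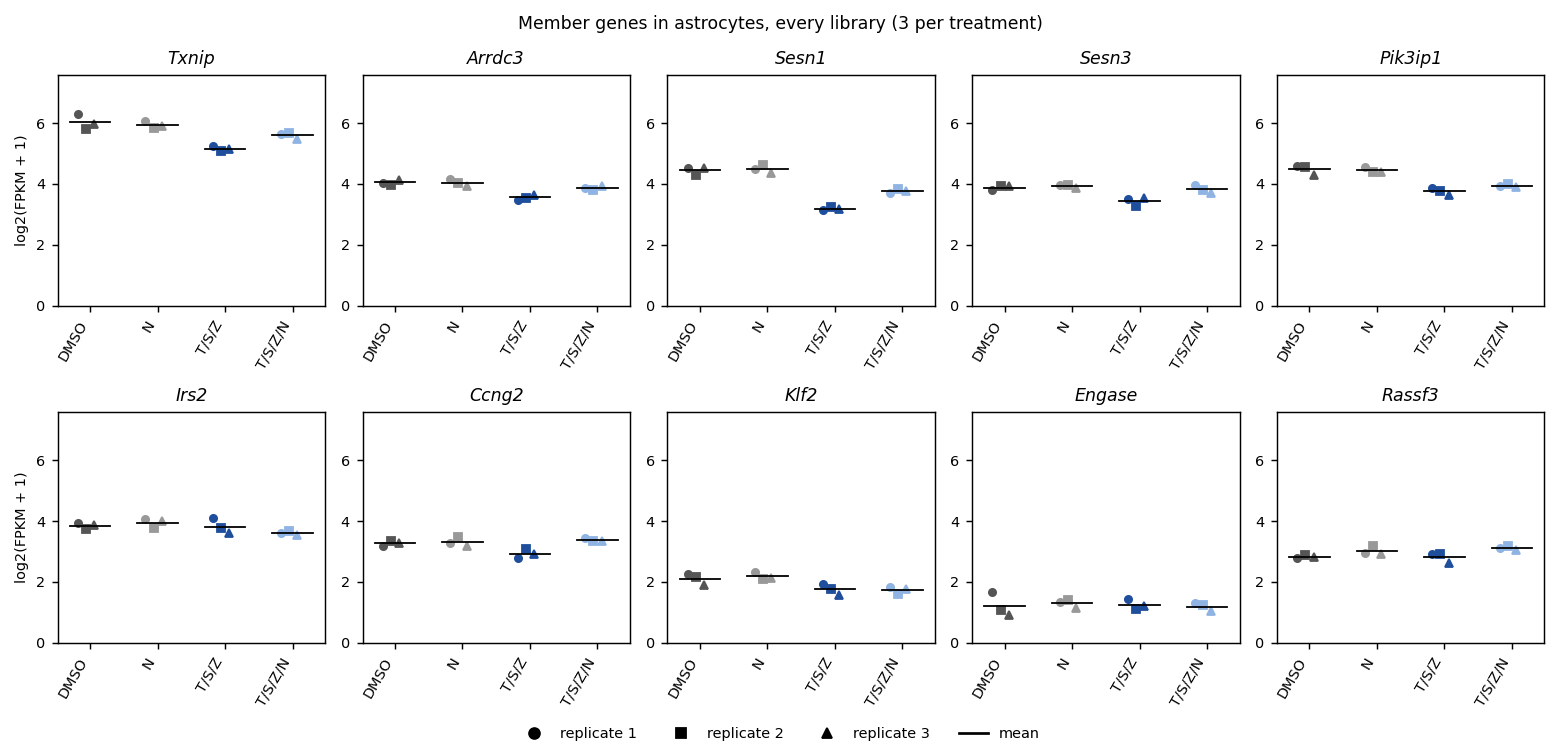
Log2(FPKM + 1) of the 10 genes (vertical axes) in every astrocyte library by treatment (horizontal axes), 3 libraries each, with the symbol giving the replicate and the line the mean. Sesn1, Txnip and Pik3ip1 were lower with T/S/Z than with DMSO, and Rassf3, Engase and Irs2 overlapped DMSO.

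Markers of other cells in the astrocyte cultures moved with T/S/Z. All 4 fibroblast markers were listed, and their sum was 370 to 410 FPKM with DMSO, 82.5 to 92.3 with T/S/Z and 321 to 332 with T/S/Z/N. The 8 microglial markers summed to 67.3 to 71.8, 40.1 to 45.1 and 59.3 to 62.2 FPKM in the same order, with Cx3cr1 at 1.96 with DMSO and 0.88 with T/S/Z on the log2 scale. The 1 endothelial marker listed went from 12.0 to 12.6 FPKM down to 2.62 to 3.27 and back to 8.66 to 9.86. The 7 oligodendrocyte lineage markers listed went from 100 to 117 FPKM to 60.3 to 86.9 with T/S/Z and 67.9 to 71.9 with T/S/Z/N. Astrocyte markers stayed between 2.9e+03 and 3.28e+03 FPKM with DMSO and T/S/Z. The part of these cells in the astrocyte changes was not tested.

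The FOXO factors and other genes of these families and pathways were then examined. All these gene lists were chosen with earlier results of these data known. The p-values given for their genes, here and below, may therefore not be independent of that choice. Of the FOXO factors, Foxo3 was lower with T/S/Z in microglia, from 4.39 to 3.17 (change -1.22, SE 0.075, limma adjusted p = 5.44e-06), and with T/5z (-1.18). Foxo4 was lower too, from 3.52 to 2.67 (-0.85, SE 0.065, adjusted p = 1.61e-05), and Foxo1 went from 2.03 to 1.48 (-0.55), under the fold limit. Foxo6 was near 0 and was not tested. In astrocytes 0 of the 3 FOXO genes tested passed (limma). Foxo1 went from 3.42 to 3.04 and Foxo4 from 2.99 to 2.67 (adjusted p = 0.0153 and 0.0372, both under the fold limit), and Foxo3 from 3.84 to 3.69 (adjusted p = 0.204). These are RNA levels of factors that are controlled mainly by their place in the cell.

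Other genes of the families and pathways went both ways. Their counts stand beside 12.2% of all genes that rose and 17.5% that fell with T/S/Z in microglia, and 6.39% and 8.99% in astrocytes. Of 27 further genes of the insulin, PI3K and AKT pathway tested in microglia, 4 rose and 5 fell, shares close to those of all genes, with a median change of -0.21 beside -0.085 over all genes. They included the PI3K subunits Pik3r5 (1.10) and Pik3cb (1.06), which rose, and Pik3r2 (-1.63) and Pik3cd (-1.33), which fell. In astrocytes 4 of 25 rose and 2 fell, Pik3r5 by the most (3.67, from 0.85 to 4.52), while Irs1, the other main insulin receptor substrate, fell (-0.90, SE 0.13, adjusted p = 0.00188). Irs1 was near 0 in microglia (0.13 with DMSO). Among 30 other textbook FOXO targets tested in microglia, 10 rose and 9 fell, with a median of -0.077. The DNA damage gene Gadd45b (3.14) and the superoxide dismutase Sod2 (3.10), both also known as NF-κB targets, rose, while the autophagy kinase Ulk1 (-1.95) and the ubiquitin ligase Fbxo32 (-1.89) fell. In astrocytes 7 of 32 rose and 4 fell, among them Gadd45b (2.54) and Cited2 (1.45), which rose, and Ppargc1a (-1.27) and Mxi1 (-0.72), which fell.

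The alpha-arrestins differed within the family. Arrdc4 rose with T/S/Z in microglia, from 3.34 to 4.58 (1.24, SE 0.092, limma adjusted p = 1.36e-05), and in astrocytes, from 3.48 to 4.56 (1.08, SE 0.091, adjusted p = 0.000155), while Txnip and Arrdc3 were lower. Arrdc2 fell in microglia (-1.06, SE 0.085, adjusted p = 2.11e-05) but not in astrocytes (0.017), and Arrdc1 passed in neither. Mlxip, which encodes MondoA, fell in microglia from 3.56 to 2.72 (-0.84, SE 0.063, adjusted p = 1.4e-05). Of 4 genes of the MondoA and ChREBP axis tested, Arrdc4 included, 1 rose and 1 fell in microglia, and 1 rose in astrocytes. Of 12 genes of the thioredoxin system, 6 rose and none fell in microglia, where 12.2% of all genes rose and 17.5% fell, among them Glrx (2.41) and Txnrd1 (2.28), and 2 rose in astrocytes. Sesn2, the remaining sestrin, passed in neither cell type with T/S/Z, and with Nec-1s added it rose in microglia after T/S/Z (0.68, SE 0.097, adjusted p = 0.000762) and after T/5z (0.71). The cyclin relatives Ccng1 (-0.16) and Ccni (-0.41) did not pass in microglia, where Ccng2 was 1.46 lower.

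**Figure D5:**
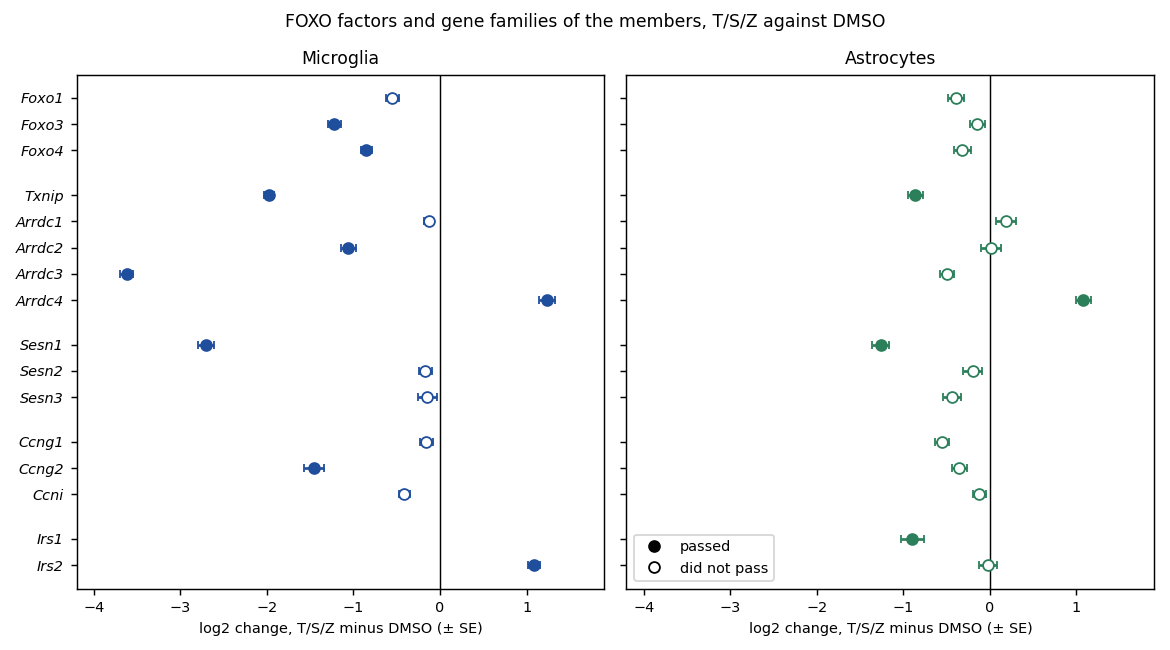
Log2 change with T/S/Z against DMSO (horizontal axes, bars are SE) of FOXO factors, alpha-arrestins, sestrins, G cyclins and insulin receptor substrates, in microglia (left) and astrocytes (right), filled where past the limits. Arrdc4 rose in both cell types while Txnip and Sesn1 were lower in both, and Irs1 has no microglial point because it was too low to test.

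Among RASSF genes other than Rassf3, Rassf2 (-2.88) and Rassf5 (-1.45) fell and Rassf1 (1.09) rose in microglia, 1 higher and 3 lower of 6 tested. In astrocytes Rassf4 (-1.42) and Rassf2 (-0.74) fell, 2 of 7. Of 8 further KLF genes tested in microglia 2 rose (Klf7, 2.05, and Klf6, 1.40) and 2 fell (Klf11, -0.78, and Klf13, -0.62), and in astrocytes 2 of 12 rose (Klf10, 1.14, and Klf6, 0.69) and 2 fell (Klf15, -1.55, and Klf5, -0.61). Sesn1 is also a p53 target. Of 16 further p53 targets tested in microglia 5 rose and 3 fell, with Gdf15 (5.00) and Plk2 (4.15) at the top and Trp53inp1 (-2.09) and Bbc3 (-1.63) at the bottom, and in astrocytes 3 of 17 rose and 1 fell, Fas (1.38), Plk2 (1.34) and Trp53inp1 (-0.86) among them.

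Over the 24 microglial libraries, which share treatments, the profile of each gene was set beside the mean profile of the other 9. Pearson's r was 0.958 for Engase, 0.884 for Arrdc3, 0.871 for Rassf3, 0.853 for Ccng2, 0.747 for Txnip and for Pik3ip1 and 0.64 for Sesn1. It was 0.297 for Sesn3, -0.155 for Klf2 and -0.215 for Irs2, whose profiles did not follow the rest. Falls in these same libraries chose genes of the group, so high values are partly built in and nothing is read from them. The 5 other genes of the table with the profile most like the mean of the 10 were Mxd4 (r = 0.98), Rnf144b (0.98), Mbnl1 (0.978), Tbc1d16 (0.977) and Tpcn1 (0.976). Mxd4, a partner of MAX that represses transcription, read 4.70 with DMSO and 2.24 with T/S/Z in microglia. In astrocytes, which this choice did not use, Mxd4 (-0.72, SE 0.085, limma adjusted p = 0.000774) and the endolysosomal channel gene Tpcn1 (-0.94, SE 0.1, adjusted p = 0.000498) fell with T/S/Z. Mbnl1 (-0.44, adjusted p = 0.00519) and Tbc1d16 (-0.40, adjusted p = 0.0146) were under the fold limit there, and Rnf144b was not tested.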

How the data were processed

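RNA-seq of 24 microglial and 12 astrocyte libraries was analysed. The authors deposited 1 table per cell type of log2 values, log2(FPKM + 1), made in OmicSoft Array Studio (version 10.1.1.3) and scaled to a common 75th percentile (4.11 to 4.16 in microglia and 4.73 to 4.74 in astrocytes). The step that gave the microglial replicates equal gene means is not described in the sources used here. Annotation columns mark 7 of the 10 genes as overlapping another gene, all but Sesn3, Ccng2 and Klf2. Values of the marked genes may hold reads of a neighbour. The same mark is on 7834 of all 15385 genes in microglia and 8207 of all 14551 in astrocytes. Rassf3 overlaps Gm48591 and Sesn1 overlaps 9930024M15Rik on the same strand, and neither neighbour had values here. The microglial library kit is not stated to keep strand.

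Genes with a log2 value of at least 1 in as many libraries as the smallest group (4 or 3) were tested, 10524 in microglia and 13842 in astrocytes, and all 10 genes passed this filter in both. Groups were compared in R 4.3.3 by limma 3.58.1. Each fit held only the libraries compared, took the replicate number as a block as in the study's paired test, and moderated variances along a trend in mean level. Tests were 2-sided and adjusted over all genes tested. A gene passed with a fold change above 1.5 (0.585 on the log2 scale) and an adjusted p below 0.05. "Rose" and "fell" of genes other than the 10 mean passed. Fold changes on the log2(FPKM + 1) scale understate the change of low genes. The fits were tested on simulated data. Values after ± are SDs. The study's methods describe biological replicates of cultured mouse cells as taken from separate litters, and do not say whether a replicate number marks the same litter in every treatment.

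The 10 genes and all gene lists were chosen with earlier results of these data known. Named beside the 10 genes were, from each list, up to 2 genes with the largest rise and 2 with the largest fall that passed with T/S/Z, the FOXO factors, both insulin receptor substrates and the 5 genes of most similar profile. Arrdc1, Arrdc2, Sesn2, Ccng1 and Ccni are named in addition because they complete the families of the 10 genes. Whole reads could not be recovered from the values, so no count test was run.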

Additional observations from a re-analysis of the deposited data

Results flagged for a closer look

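Single libraries stood apart from the other 3 of their treatment in 5 of 60 groups of microglial libraries examined for the 10 genes, by Dixon's test at the 95% level (critical ratio 0.829), which by chance marks about 1 group in 20. Txnip was lowest in replicate 3 of T/5z/N (6.57, the others 6.62 to 6.63), Sesn3 lowest in replicate 4 of T/5z/N (0.73, the others 0.99 to 1.03) and Pik3ip1 highest in replicate 1 of T/5z (1.0, the others 0.80 to 0.82). Engase was highest in replicate 4 of N (4.95, the others 4.57 to 4.63) and lowest in replicate 4 of T/S/Z (0.78, the others 1.15 to 1.18).

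The change with Nec-1s after T/S/Z minus that after T/5z in microglia lay past the limits for Txnip (1.22), Sesn1 (1.12), Engase (-0.77) and Irs2 (-1.56). These libraries may have had a part in the choice of the genes, so the values are descriptions.

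Klf2 was higher with T/S/Z in every microglial pair (0.78) and lower in every astrocyte pair (-0.34). With T/S/Z/N, Rassf3 was lower than with DMSO in every microglial pair (-2.57) and higher in every astrocyte pair (0.29), where it was also higher with N alone (0.20). These differences between cell types were not tested.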

How the results depend on the processing

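The median change over the 10 genes is given for microglial comparisons with DMSO and with Nec-1s added, and the number of the 10 that passed for the others. With 5 added before the log the medians shrank to -0.57 (T/5z), -1.49 (T/S/Z), 0.27 (T/5z/N against T/5z), 0.34 (T/S/Z/N against T/S/Z), -0.54 (T/5z/N against DMSO) and -0.63 (T/S/Z/N against DMSO), and none of the 10 passed for T/S/Z/N against DMSO in astrocytes. With genes kept only at a mean log2 value of at least 3, which left 5 of the 10 in microglia, the first 5 medians were -1.42, -2.71, 0.62, 1.37 and -0.51, and 2 interactions passed. Replicate 4 alone, with no test, gave -0.996 (T/5z), 0.46 (T/5z/N against T/5z) and 0.43 (T/S/Z/N against T/S/Z). Leaving out each replicate gave 3 to 5 genes for T/S/Z/N against T/5z/N (5 without replicate 1), 0 to 1 for T/S/Z/N against T/S/Z in astrocytes (1 without replicate 1) and 1 to 2 for T/S/Z/N against DMSO in astrocytes (2 without replicate 3).

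For the 10 genes, 140 changes (10 genes in each of 14 comparisons) were recomputed in 1438 alternatives. Of these 20 lost and 13 gained the call, none reversed a called value, and 49 changed the sign of a value that had not passed. No called value moved by over 1.5 times when a replicate was left out. Values without the replicate block were the same or close: medians of -0.81 (T/5z), -1.72 (T/S/Z), 0.39 and 0.62 (Nec-1s added), and 4, 3 and 4 genes in the direct comparisons of stimuli and the interaction, 3 and 1 in astrocytes, and the block changed no call among the 10 genes. In microglia this shows little, because the replicates had been given equal gene means before deposit. Whether the numbers pair the samples could not be read from the microglial values, since equal replicate means force a negative correlation between deviations of same-numbered libraries (median r -0.249 over 60 pairs). In astrocytes the median r was 0.041 over 18 pairs (5 above 0.1), which does not show pairing.

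Over all genes, 5 added before the log lowered one or both counts of each comparison named here by more than 1.5 times, with T/S/Z from 1280 higher and 1838 lower to 883 and 750 in microglia, with T/5z from 1167 and 1396 to 769 and 715, and with T/S/Z from 885 and 1245 to 567 and 418 in astrocytes. For Nec-1s added to T/S/Z in microglia it gave 109 and 405, and for T/S/Z/N in astrocytes 382 and 160. With T/S/Z the mean filter gave 891 and 814, and 533 and 561, from fewer genes tested. Centring each library on its median gave 1564 higher and 1406 lower with T/S/Z in microglia, and 351 and 862 instead of 563 and 707 for Nec-1s added to it. Quantile normalization gave 999 and 917 with T/S/Z in astrocytes, and 686 and 474 instead of 604 and 653 with T/S/Z/N. Unknown depth and the adjusted low values limit what can be said of Pik3ip1 and Sesn3 in microglia.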
